A study of Mus musculus with 7 samples.

Results

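The genes described here are those of the nuclear receptor family other than Hnf4a, read on 7 arrays of mouse embryonic fibroblasts (MEF), induced hepatic stem cells (iHepSC) and primary hepatocytes (pHep). Hnf4a, itself a nuclear receptor, was introduced into the cells as a reprogramming factor and is left out. The list holds 45 genes chosen by name from the family, and each was read by 1 probe set, the one with the highest mean over the 7 arrays. Of the 45 genes, 43 had a probe set that the array's annotation ties to that gene alone, among 18193 genes in the table. Nr1h2 and Nr2e3 had no such probe set and were not analysed here.

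Nuclear receptors are transcription factors whose activity in many cases is set by a small lipid-soluble ligand, such as a steroid, thyroid hormone, a retinoid, a bile acid or a fatty acid. Many of them bind DNA as a pair with a retinoid X receptor, and exchange corepressors for coactivators when a ligand binds. In hepatocytes they govern bile acid, lipid, glucose and drug metabolism, and several others carry the daily rhythm or act as early response genes.

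All cells were labelled as C57BL/6 (C57BL/6J in the methods, for embryos and hepatocyte donors) and measured on Affymetrix mouse expression arrays as bulk RNA. The iHepSC were MEF infected with lentivirus encoding Oct4 and Hnf4a, grown in HEP medium, picked by hand as colonies and expanded as clones, with 1 array at passage 20 (P20) and 1 at passage 3 (P3). The study analysed 1 clone, iHepSC-C3, in detail, and no source names the clone beside the arrays, so both may come from 1 line. The single pHep array held hepatocytes that were isolated from mice 6 weeks old by collagenase perfusion, and the 4 MEF arrays held fibroblasts from mid-gestation embryos without head and internal organs. Sources differ on the culture of pHep, which the labels put in HEP medium, while the methods describe a few hours on plates in Williams' medium E with antibiotics and glutamine before RNA was taken. HEP medium as labelled, but not the MEF medium, contained dexamethasone (a ligand of the glucocorticoid receptor), nicotinamide, HGF and EGF, so that medium and cell type cannot be told apart between iHepSC and MEF, and whether pHep met these agents is not settled. No source states that replicates were separate cultures, so the p-values cover only the spread among these arrays, which may be technical.

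The deposited values are log2 levels after Robust Multiarray Analysis (RMA), with array medians of 6.28 to 6.33. Levels of different genes were not compared, and the files used give no detection call, so that a flat low level cannot be told from background. The correlation among MEF replicates 2 to 4 was 0.997 across probe sets, and that of replicate 1 with them was 0.960 to 0.961. Replicate 1 thus stood apart from the rest of its group, and it correlated more closely than they did with iHepSC and pHep. With iHepSC P20 its correlation was 0.899, against 0.886 to 0.887 for MEF 2 to 4, and with pHep 0.88, against 0.862 to 0.863. Gapdh was at 13.99 on MEF 1, 14.39 to 14.43 on MEF 2 to 4, 13.67 and 13.97 in iHepSC and 14.28 on pHep. Whether MEF 1 or MEF 2 to 4 are the unusual arrays was not tested. Of 10 hepatocyte markers 7 were higher in iHepSC and 9 on pHep than in MEF, and of 12 fibroblast markers 12 were lower in iHepSC and 10 on pHep. The exception on pHep was Cyp2e1, an abundant hepatocyte enzyme, at 5.11 there and at 5.19 to 5.48 on the other 6 arrays. Macrophage markers were also high on pHep, where 9 of 12 were above MEF and Vsig4, a Kupffer cell receptor, stood at 11.57 against 4.96 to 5.51 in MEF. The log2 of the summed linear levels of the 12 markers was 12.34 and 12.83 in iHepSC, 14.63 on pHep, 12.77 on MEF 1 and 11.22 to 11.43 on MEF 2 to 4. None of the 12 was listed at 0, since RMA gives every probe set a level, and Clec4f, which marks Kupffer cells, did not pass the test on pHep (6.08, against 6.46 to 6.75 in MEF). Of 6 bile duct markers 4 were higher and 1 lower in iHepSC than in MEF and 2 and 1 on pHep, of 10 endothelial markers 4 and 1 in iHepSC and 0 and 3 on pHep, and of 8 stellate cell markers 0 and 3 in iHepSC and 1 and 2 on pHep. In bulk RNA, fewer cells of a type and less RNA per cell cannot be told apart.

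Nuclear receptor genes changed in both directions in each comparison, and the bile acid, xenobiotic and fatty acid receptors Nr1h4, Nr1i2 and Ppara were higher in iHepSC and on pHep than in MEF. In iHepSC against MEF, 9 of the 43 members were higher, which is 20.9% of them beside 18.2% of all genes, and 8 were lower, 18.6% beside 13.4% of all genes (limma, adjusted p under 0.05). On pHep against MEF, 12 were higher, 27.9% beside 14.8%, and 8 were lower, 18.6% beside 15.5%. In iHepSC against pHep, 4 were higher, 9.30% beside 9.26%, and 8 were lower, 18.6% beside 7.89%. The median difference of the members was -0.03 in iHepSC against MEF, -0.08 on pHep against MEF and 0.09 in iHepSC against pHep, and over all genes it was 0.01, -0.13 and 0.15. Both iHepSC arrays lay above all 4 MEF arrays for 13 members, 30.2% beside 26.9% of all genes, and below them for 9, 20.9% beside 23.7%. The pHep array lay above all MEF arrays for 16 members, 37.2% beside 26.9%, and below them for 17, 39.5% beside 45.7%. With a minimum of 2-fold added, 6 members were higher in iHepSC than in MEF, beside 10.8% of all genes, and 3 lower, beside 7.52%. On pHep against MEF 10 were higher by that rule, beside 10.8%, and 5 lower, beside 8.22%, and in iHepSC against pHep 3 were higher, beside 6.02%, and 7 lower, beside 6.17%. In 17 of 43 members, 39.5%, no comparison passed the test, against 55.9% of all genes. With each array centred on Gapdh, which shifted the median of all genes by 0.49 in iHepSC against MEF, 11 members were higher and 3 lower in that comparison, so that the falls of 5 members (Rara, Rarb, Rarg, Nr2f2 and Nr2c1) in iHepSC did not pass on that scale. MEF 1 was at least 1 above the mean of MEF 2 to 4 in 4 members, beside 8.26% of all genes, and at least 1 below it in 1, Pparg, beside 3.73%. Without MEF replicate 1 the counts were 14 higher and 10 lower in iHepSC, and 14 higher and 14 lower on pHep. The counts over all genes rose too. Of 18193 genes, 10152 were called in iHepSC and 10660 on pHep without MEF 1, against 5756 and 5510 with all arrays. Below, passing a test refers to the fit of all arrays on the chosen probe set, unless another setting or probe set is named.

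**Figure D1:**
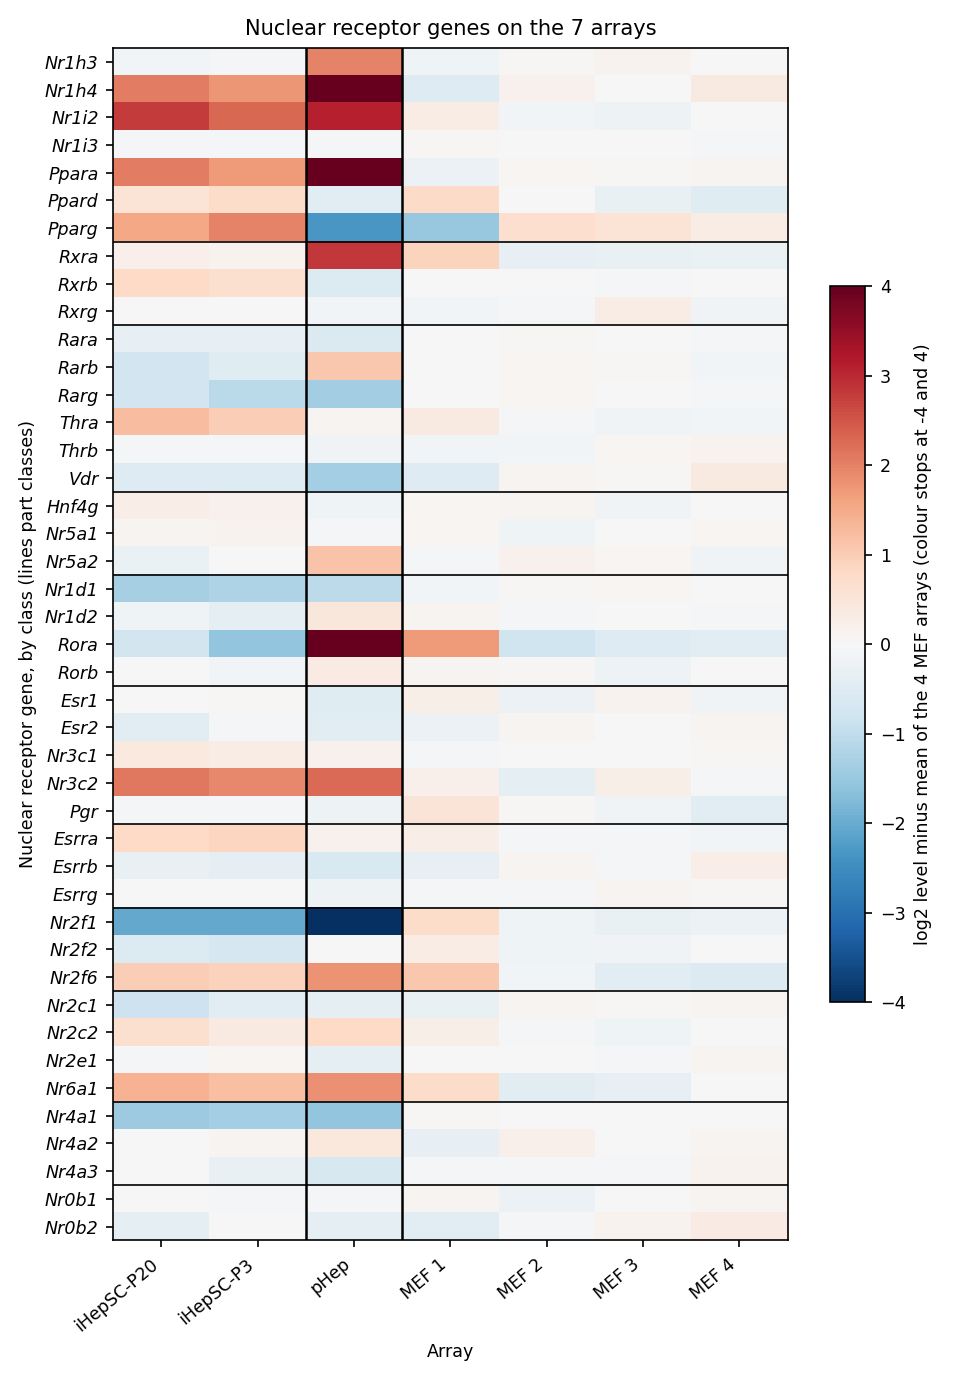
Log2 level of each of the 43 nuclear receptor genes on each of the 7 arrays, minus the mean of the 4 MEF arrays, with genes in rows by class and arrays in columns (iHepSC, pHep, MEF). Red is above and blue below the MEF mean; Nr1h4, Nr1i2, Ppara and Nr3c2 are red in iHepSC and on pHep, Nr1h3 and Rora on pHep but not in iHepSC, Rxra far more on pHep than in iHepSC, and several genes differ between MEF 1 and the other MEF arrays.

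The 2 comparisons with MEF share the MEF arrays, so their calls are given side by side. Members higher in both were Nr1h4, Nr1i2, Ppara, Nr3c2 and Nr6a1, 5 of 43, or 11.6% beside 8.68% of all genes. Members lower in both were Nr1d1, Nr4a1, Nr2f1, Rara and Rarg, also 5, or 11.6% beside 8.15% of all genes. Rarb and Rxrb were called in opposite directions, 2 of 43, or 4.65% beside 1.62% of all genes.

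The sensors of bile acids, xenobiotics and fatty acids held the largest rise on the chosen probe sets in each comparison with MEF. Nr1h4, the bile acid receptor FXR (probe set 1419105_at), had levels of 7.79 at P20 and 7.51 at P3 in iHepSC, of 10.83 on pHep, and of 5.22, 5.92, 5.72 and 6.09 on MEF 1 to 4. Both iHepSC arrays lay above all MEF arrays and pHep lay above both. The mean was 7.65 ± 0.20 in iHepSC (SD, n = 2) and 5.74 ± 0.37 in MEF (SD, n = 4), a log2 difference of 1.91 (standard error 0.25, adjusted p = 0.00207) or 3.77-fold. On pHep Nr1h4 was higher than in MEF by 5.09 (standard error 0.33, adjusted p = 0.00013), or 34.1-fold, and the difference between iHepSC and pHep was -3.18 (standard error 0.36, adjusted p = 0.00189). The receptor was thus at a middle level in iHepSC, and the 3 calls passed under each of the 16 alternatives fitted gene by gene.

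Nr1i2, the xenobiotic receptor PXR (1451807_at), had levels of 8.34 and 7.83 in iHepSC (P20 and P3), 8.67 on pHep and 5.84, 5.43, 5.35 and 5.56 in MEF. Its iHepSC arrays came closer to pHep than those of Nr1h4. The difference was 2.54 in iHepSC against MEF (standard error 0.20, adjusted p = 0.000227), 5.80-fold, and 3.12 on pHep against MEF (standard error 0.26, adjusted p = 0.000389). Between iHepSC and pHep it was -0.58, with a 95% confidence interval of -1.27 to 0.10 (adjusted p = 0.230), an interval that spans 0 and reaches a gap of 1.27. A second probe set of Nr1i2 rose as well, by 2.24 in iHepSC and 2.46 on pHep.

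Ppara, the receptor that switches on fatty acid oxidation in the fasted liver (1439675_at), had 7.39 and 7.04 in iHepSC, 9.84 on pHep and 5.10, 5.43, 5.38 and 5.46 in MEF. As with Nr1h4, both iHepSC arrays lay between MEF and pHep. It was higher than in MEF by 1.87 in iHepSC (standard error 0.16, adjusted p = 0.000314) and by 4.50 on pHep (standard error 0.20, adjusted p = 3.33e-05), and the difference between iHepSC and pHep was -2.63 (standard error 0.22, adjusted p = 0.000599). On its other 2 probe sets the rise on pHep was 3.07 and 2.94, and in iHepSC it was 0.99, which passed, and 0.38, which did not.

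Nr1h3, the oxysterol receptor LXRalpha (1450444_a_at), was high on pHep alone. Its levels were 6.20 and 6.25 in iHepSC, 8.28 on pHep and 6.12, 6.36, 6.44 and 6.29 in MEF, so that the iHepSC and MEF arrays overlapped. The difference from MEF was 1.98 on pHep (standard error 0.15, adjusted p = 0.000277) and -0.08 in iHepSC (95% confidence interval -0.36 to 0.21, adjusted p = 0.665). Between iHepSC and pHep it was -2.06 (standard error 0.17, adjusted p = 0.000477). Nr1h3 is known in macrophages as well as in hepatocytes, and the part that the macrophage markers on pHep, given above, have in its level was not tested.

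Pparg, the receptor best known from fat cells (1420715_a_at), stood in the other direction. It had 10.29 and 10.72 in iHepSC, 6.41 on pHep and 7.21, 9.40, 9.30 and 9.05 in MEF. Both iHepSC arrays lay above all MEF arrays and pHep below all of them, with MEF 1 far below the other 3. The difference between iHepSC and pHep was 4.09 (standard error 0.90, adjusted p = 0.0282), 17.0-fold, and the differences from MEF of 1.76 in iHepSC (adjusted p = 0.0869) and -2.33 on pHep (adjusted p = 0.0807) did not pass. Without MEF 1 both passed, at 1.25 (adjusted p = 0.000415) and -2.83 (adjusted p = 2.7e-05), and the call between iHepSC and pHep held in 9 of 16 alternatives.

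Nr1i3, the receptor CAR, which induces drug-metabolising enzymes in hepatocytes, was flat on its probe set. It stood at 5.24 on both iHepSC arrays and on pHep, and at 5.24 to 5.34 in MEF. Ppard, a broadly expressed fatty acid receptor, had 8.00 and 8.19 in iHepSC, 7.01 on pHep and 8.24, 7.45, 7.16 and 6.98 in MEF. On the chosen probe set it passed no test with all arrays, and without MEF 1 it was higher in iHepSC than in MEF by 0.89 (limma, adjusted p = 0.00161). The second probe set of Ppard, 1425703_at, passed on pHep against MEF with all arrays, at -0.55. In iHepSC that probe set showed -0.12 and did not pass.

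**Figure D2:**
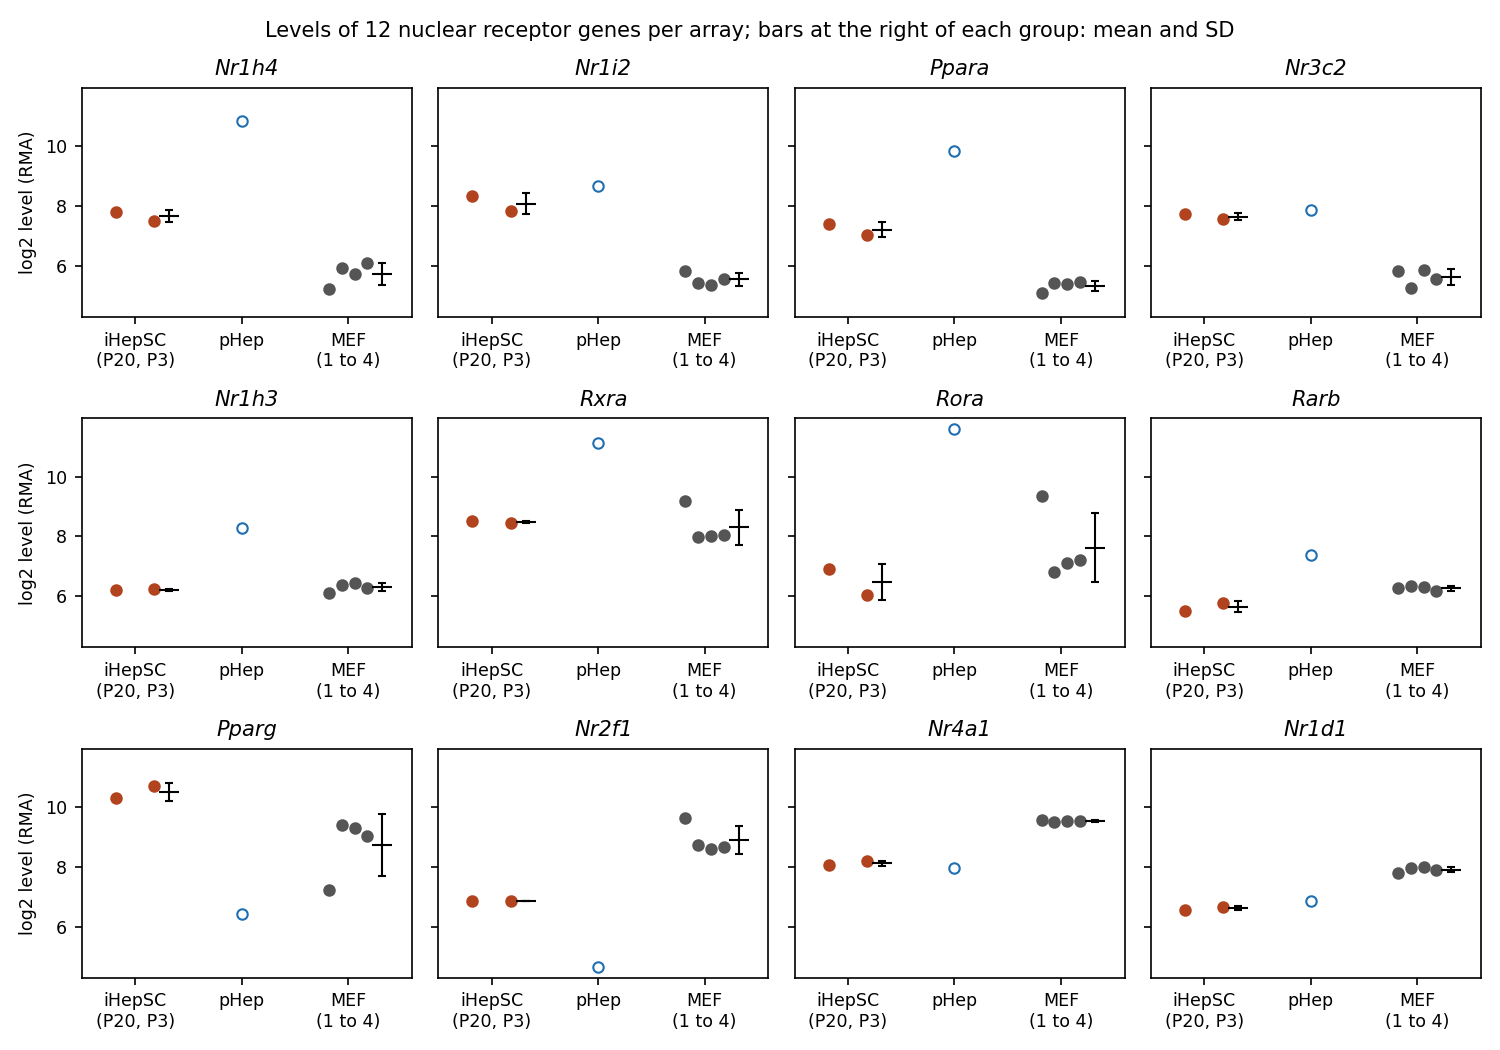
Log2 level (RMA, y axis, 1 scale for all panels) of 12 nuclear receptor genes on each array, with iHepSC (P20 left of P3), pHep and MEF (replicates 1 to 4) along the x axis; the bars beside the points are the mean and SD for iHepSC (n = 2) and MEF (n = 4), and pHep is 1 array. Nr1h4 and Ppara stand in iHepSC between MEF and pHep, Nr1i2 and Nr3c2 near pHep, and MEF 1 stands apart from MEF 2 to 4 for Rxra, Rora, Pparg and Nr2f1.

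The retinoid X receptors, which pair with many of the other family members, differed from each other. Rxra (1454773_at) had 8.51 and 8.46 in iHepSC, 11.13 on pHep and 9.19, 7.97, 8.02 and 8.05 in MEF. It was higher on pHep than in MEF by 2.83 (standard error 0.47, adjusted p = 0.00674), 7.09-fold, and iHepSC differed from pHep by -2.65 (standard error 0.52, adjusted p = 0.0184). In iHepSC against MEF the difference was 0.18 (adjusted p = 0.752), and 0.47 without MEF 1 (adjusted p = 0.00147). Its other 2 probe sets showed 0.17 and 0.14 on pHep against MEF and did not pass.

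Rxrb (1416990_at), unlike Rxra, was lower on pHep than in MEF. Its levels were 10.44 and 10.28 in iHepSC, 9.09 on pHep and 9.64, 9.66, 9.60 and 9.64 in MEF, with no overlap between the 3 groups. It was higher in iHepSC than in MEF by 0.73 (standard error 0.09, adjusted p = 0.00181) and lower on pHep (-0.55, standard error 0.12, adjusted p = 0.0179), and the difference between iHepSC and pHep was 1.27 (standard error 0.13, adjusted p = 0.00131). The fall on pHep did not pass with each array centred on Gapdh. Rxrg, known from muscle and brain, stood at 5.92 to 6.37 on all arrays and passed no test.

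The 3 retinoic acid receptors were lower in iHepSC than in MEF, and none of these falls passed with arrays centred on Gapdh. Rarg (1419415_a_at) had 8.66 and 8.34 in iHepSC, 8.03 on pHep and 9.42, 9.49, 9.40 and 9.38 in MEF, and all 3 arrays of iHepSC and pHep lay below the MEF arrays. The difference was -0.93 in iHepSC (standard error 0.12, adjusted p = 0.00182) and -1.39 on pHep (standard error 0.15, adjusted p = 0.0013). Rara fell by less, by 0.32 in iHepSC (adjusted p = 0.0379) and 0.59 on pHep (adjusted p = 0.0130), and centring on Gapdh turned its iHepSC difference to 0.17 (adjusted p = 0.547). The call of Rara in iHepSC held in 6 of 16 alternatives.

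Rarb (1454906_at), itself a retinoic acid response gene, parted iHepSC from pHep. It had 5.52 and 5.78 in iHepSC, 7.37 on pHep and 6.26, 6.35, 6.33 and 6.16 in MEF, with no overlap between the groups. It was lower in iHepSC than in MEF (-0.62, standard error 0.12, adjusted p = 0.00872), higher on pHep (1.09, standard error 0.15, adjusted p = 0.00319), and differed between iHepSC and pHep by -1.72 (standard error 0.16, adjusted p = 0.00101). With each array centred on Gapdh the difference of iHepSC from MEF was -0.13 and did not pass.

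Thra, the thyroid hormone receptor alpha gene (1443952_at), rose in iHepSC. Its levels were 9.33 and 9.10 in iHepSC, 8.22 on pHep and 8.45, 8.02, 7.96 and 7.99 in MEF. Only the iHepSC arrays lay outside the MEF range, by a mean difference of 1.11 (standard error 0.17, adjusted p = 0.0041), and against pHep by 0.99 (standard error 0.24, adjusted p = 0.0401). Of its other probe sets 1 passed in iHepSC against MEF, at 0.90, and 1 did not, at -0.07, and averaging its probe sets ended both calls. The call against MEF held in 12 of 16 alternatives and that against pHep in 6. Thra lies on the opposite strand to Nr1d1 at their 3' ends, and the files used do not give the strand or part of the gene that each probe set reads. Thrb, the thyroid hormone receptor gene known to prevail in adult liver, stood at 5.32 to 5.59 on all arrays. Vdr, the vitamin D receptor (1418176_at), had 6.89 on both iHepSC arrays, 6.03 on pHep and 6.88, 7.50, 7.46 and 7.77 in MEF, and its difference from MEF on pHep was -1.37 (standard error 0.31, adjusted p = 0.0209). This call held in 9 of 16 alternatives, and the second probe set of Vdr showed -0.09 in that comparison. In iHepSC against MEF the difference of Vdr was -0.51 and did not pass. Without MEF 1 it was -0.69 and passed (limma, adjusted p = 0.00143).

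Among the steroid hormone receptors Nr3c2 rose and the estrogen and progesterone receptors passed no test. Nr3c2, the mineralocorticoid receptor (1435991_at), had 7.73 and 7.57 in iHepSC, 7.88 on pHep and 5.82, 5.26, 5.87 and 5.57 in MEF. The 3 arrays of iHepSC and pHep lay close together and above all MEF arrays. The difference from MEF was 2.02 in iHepSC (standard error 0.19, adjusted p = 0.000533), 4.05-fold, and 2.25 on pHep (standard error 0.25, adjusted p = 0.00135), and that between iHepSC and pHep was -0.23, with a 95% confidence interval of -0.90 to 0.43.

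Nr3c1, the glucocorticoid receptor, was measured at 10.57 and 10.48 in iHepSC, 10.35 on pHep and 10.16 to 10.22 in MEF. Its rise of 0.33 in iHepSC (adjusted p = 0.0306) was small, held in 5 of 16 alternatives, and turned to -0.17 with the mean of its 6 probe sets (adjusted p = 0.624). The probe sets disagreed on MEF: 1421866_at read 6.15 and 6.24 in iHepSC, 6.55 on pHep, 5.85 on MEF 1 and 8.81, 9.05 and 8.89 on MEF 2 to 4. There MEF 1 lay with iHepSC and pHep and not with its own group. A second probe set of Nr1d2 showed the same split, with 4.85 and 4.62 in iHepSC, 4.65 on pHep, 4.67 on MEF 1 and 6.94, 7.28 and 7.42 on MEF 2 to 4. Esr1, Esr2 and Pgr, the estrogen and progesterone receptors, stood between 4.46 and 5.86 on all arrays, and in iHepSC their differences from MEF were 0.01, -0.24 and -0.06.

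The orphan receptors of liver and gut were not raised in iHepSC on the probe sets chosen. Nr5a2 (LRH-1), which with Nr0b2 (SHP) controls bile acid synthesis in the liver, had 5.44 and 5.71 in iHepSC, 6.82 on pHep and 5.60, 5.86, 5.77 and 5.54 in MEF on the probe set with the highest mean, 1449706_s_at. That is a difference of 1.13 on pHep against MEF (standard error 0.18, adjusted p = 0.00559) and of -1.25 in iHepSC against pHep (standard error 0.20, adjusted p = 0.00786). The choice of probe set set its size, since 1456521_at read 5.01 and 5.22 in iHepSC, 10.90 on pHep and 5.19, 4.91, 4.43 and 4.54 in MEF. On that probe set pHep stood 6.14 above MEF, on 1420410_at 4.21 above, and in iHepSC none of the 4 probe sets of Nr5a2 passed against MEF.

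Nr0b2, a corepressor-like receptor without a DNA-binding domain and a known target of FXR, had 6.59 and 6.96 in iHepSC, 6.55 on pHep and 6.51, 6.90, 7.09 and 7.29 in MEF, and passed no test. Nr0b1 stood at 4.07 to 4.42 on all arrays. Hnf4g, the closest relative of Hnf4a, passed no test on the chosen probe set, at 4.06 to 4.48. On 1460127_at, chosen here after its values were seen, Hnf4g read 4.87 and 4.49 in iHepSC, 3.23 on pHep and 3.39, 3.53, 3.52 and 3.54 in MEF, a difference of 1.19 in iHepSC against MEF. Nr5a1, known from steroid-producing glands, stood at 6.12 to 6.42.

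The clock receptors differed by gene. Nr1d1 (REV-ERBalpha), a repressor in the daily clock (1426464_at), had 6.57 and 6.67 in iHepSC, 6.87 on pHep and 7.79, 7.96, 7.98 and 7.90 in MEF, without overlap. It was lower than in MEF both in iHepSC (-1.29, standard error 0.10, adjusted p = 0.000223) and on pHep (-1.04, standard error 0.13, adjusted p = 0.00221). Nr1d2, its close relative, had 10.96 and 10.79 in iHepSC, 11.59 on pHep and 11.07 to 11.23 in MEF, and its rise of 0.46 on pHep (adjusted p = 0.0473) held in 4 of 16 alternatives and was -0.73 with the mean of its probe sets (adjusted p = 0.289). Harvest times are not given, and the part of time of day in these levels was not tested.

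Rora (1424034_at), an activator in the clock and in hepatic lipid metabolism, had the largest difference of any member on the chosen probe sets. Its levels were 6.90 and 6.06 in iHepSC, 11.60 on pHep and 9.34, 6.83, 7.13 and 7.22 in MEF. pHep lay above all other arrays, and MEF 1 lay between pHep and the rest. The difference was -5.12 in iHepSC against pHep (standard error 1.04, adjusted p = 0.0209), 34.9-fold lower, and 3.98 on pHep against MEF (standard error 0.95, adjusted p = 0.0246), which held in 9 of 16 alternatives. In iHepSC against MEF it was -1.15 and did not pass (95% confidence interval -2.94 to 0.64). Of the 9 probe sets of Rora, 6 were higher on pHep than in MEF, by up to 5.23, and 0 were lower. Rorb, known from retina and brain, passed no test on its chosen probe set (6.12 to 6.64 on all arrays), while its other 2 probe sets were higher on pHep than in MEF by 2.01 and 1.43.

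Of the COUP-TF receptors, known for mesenchymal and neural expression, Nr2f1 was lower in iHepSC and on pHep than in MEF. Nr2f1 (COUP-TFI, 1418157_at) had 6.86 on both iHepSC arrays, 4.64 on pHep and 9.62, 8.72, 8.59 and 8.66 in MEF. All 3 groups were apart, with iHepSC between the others. Its difference from MEF was -2.04 in iHepSC (standard error 0.31, adjusted p = 0.00353) and -4.26 on pHep (standard error 0.39, adjusted p = 0.000646), a 19.1-fold lower level, and iHepSC stood 2.22 above pHep (standard error 0.43, adjusted p = 0.0181). Nr2f2 (COUP-TFII, 1416159_at) was lower in iHepSC (-0.60, limma, adjusted p = 0.0300), a call that held in 9 of 16 alternatives. It had 9.13 and 9.00 against 9.51 to 9.96 in MEF, and on pHep it was 9.67, within the MEF range. Of the 6 probe sets of Nr2f2, 3 were lower in iHepSC than in MEF and 1 on pHep (1436475_at, -0.66), with 0 higher in either. Nr2f6 had 10.10 and 10.03 in iHepSC, 10.92 on pHep and 10.19, 9.01, 8.71 and 8.56 in MEF. On this chosen probe set it passed no test with all arrays. Without MEF 1 it was higher than in MEF by 1.31 in iHepSC (limma, adjusted p = 0.00016) and 2.16 on pHep (adjusted p = 4.8e-05). The second probe set of Nr2f6, 1460647_a_at, passed as higher on pHep than in MEF with all arrays. In iHepSC against MEF that probe set did not pass.

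Of the NR4A receptors, which are induced within minutes by many stimuli, Nr4a1 was lower in both. Nr4a1 (Nur77, 1416505_at) had 8.06 and 8.18 in iHepSC, 7.95 on pHep and 9.58, 9.50, 9.52 and 9.52 in MEF. The spread within MEF was small, and all 3 other arrays lay more than 1 below it. The difference was -1.41 in iHepSC (standard error 0.09, adjusted p = 9.7e-05), 2.65-fold lower, and -1.58 on pHep (standard error 0.12, adjusted p = 0.000236). Nr4a3 (NOR1) was lower on pHep (-0.63, adjusted p = 0.0301), a call that held in 10 of 16 alternatives. Its probe set 1438796_at passed in both, with -0.57 in iHepSC and -1.04 on pHep, and 1421079_at in neither, with 0.14 and -0.07. Nr4a2 (NURR1) passed no test, though its probe sets went both ways on pHep, 1 higher and 1 lower.

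Among the other orphan receptors Nr6a1, the germ cell nuclear factor that represses Oct4 in embryonic cells, rose in both. Nr6a1 (1428825_at) had 7.28 and 7.09 in iHepSC, 7.74 on pHep and 6.65, 5.49, 5.58 and 5.87 in MEF. MEF 1 was the closest of its group to iHepSC, and no array of MEF overlapped with iHepSC or pHep. The difference was 1.29 in iHepSC (standard error 0.33, adjusted p = 0.0292) and 1.84 on pHep (standard error 0.43, adjusted p = 0.0227), each of which held in 9 of 16 alternatives. Esrra, the estrogen-related receptor that works with PGC-1 coactivators in mitochondrial metabolism, was higher in iHepSC by 0.83 (adjusted p = 0.00539), with 9.93 and 10.00 against 9.02 to 9.40 in MEF. On pHep it stood at 9.30 on that probe set, within the MEF range, and its second probe set was higher by 1.66. Esrrb and Esrrg passed no test with all arrays. Without MEF 1 Esrrb passed as lower than MEF in iHepSC (-0.43) and on pHep (-0.70). Nr2c2 (TR4) was higher on pHep by 0.81 (limma, adjusted p = 0.0247), a call that held in 10 of 16 alternatives. Of its 6 probe sets, 3 were higher and 1 lower on pHep than in MEF. In iHepSC 2 of them were higher than in MEF, by 0.54 and 0.49, and 0 were lower. Nr2c1 (TR2) was lower in iHepSC (-0.65, adjusted p = 0.0322), a call that held in 6 of 16 alternatives. Nr2e1, a neural stem cell receptor, stood at 4.10 to 4.54.

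**Figure D3:**
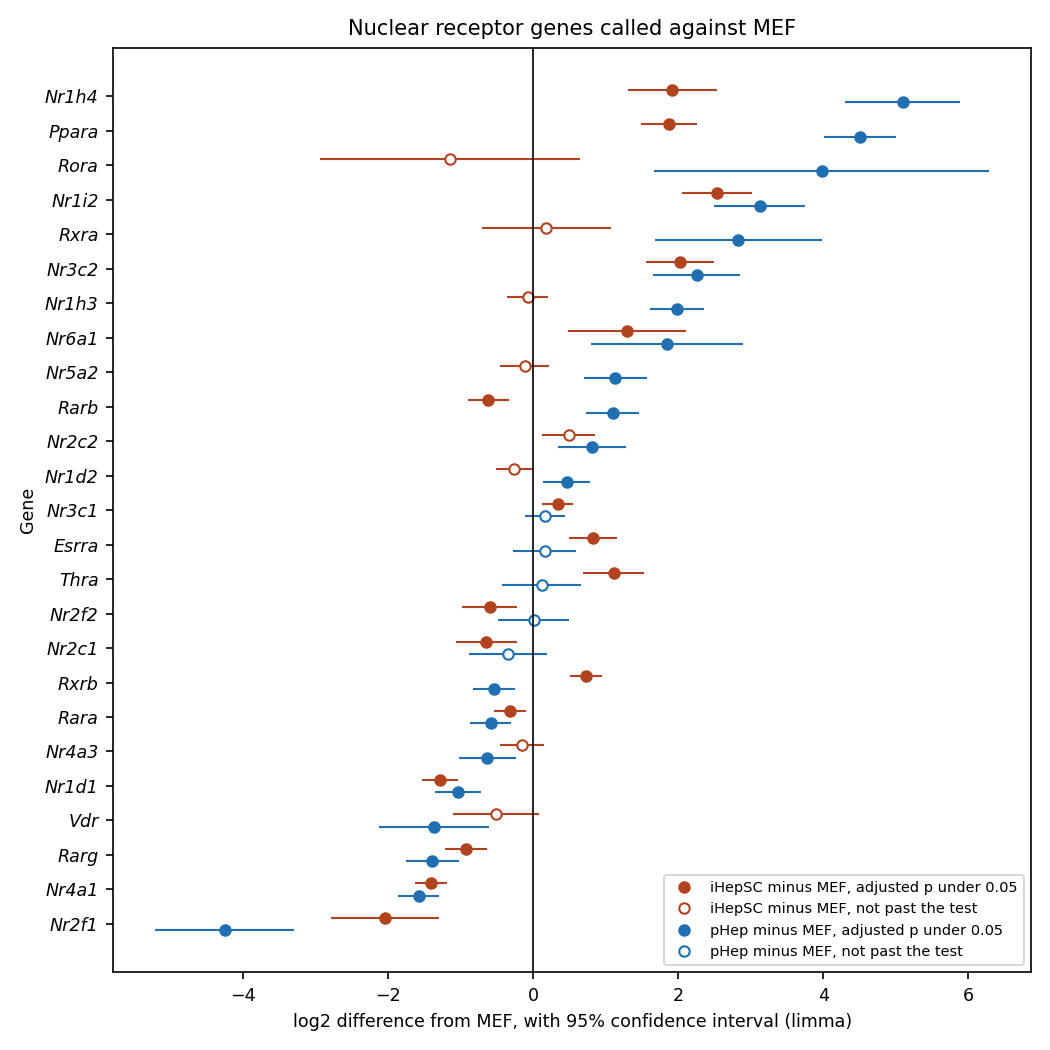
Log2 difference from MEF (x axis, dots) with its 95% confidence interval (lines) for the nuclear receptor genes called against MEF, iHepSC in red and pHep in blue, with open dots for differences that did not pass. For Nr1h4, Ppara and Nr2f1 the pHep difference is larger than that of iHepSC, and for Nr1i2, Nr3c2 and Nr4a1 the intervals overlap.

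The probe set decided several of these values. The 43 members had 111 probe sets, 27 members had more than 1 and 16 had 1. When each probe set was fitted as its own row, 17 of 111 were higher and 13 lower in iHepSC against MEF, beside 14.7% and 11.8% of all probe sets called in those directions. On pHep against MEF 31 were higher and 15 lower, beside 14.7% and 13.8%, and in iHepSC against pHep 7 were higher and 23 lower, beside 7.05% and 8.03%. Probe sets of 1 gene were called in opposite directions for 0 members in iHepSC against MEF and for 3 on pHep against MEF (Nr2c2, Nr6a1 and Nr4a2). The share of such genes over the whole table was not counted, so these counts cannot be set against it.

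**Figure D4:**
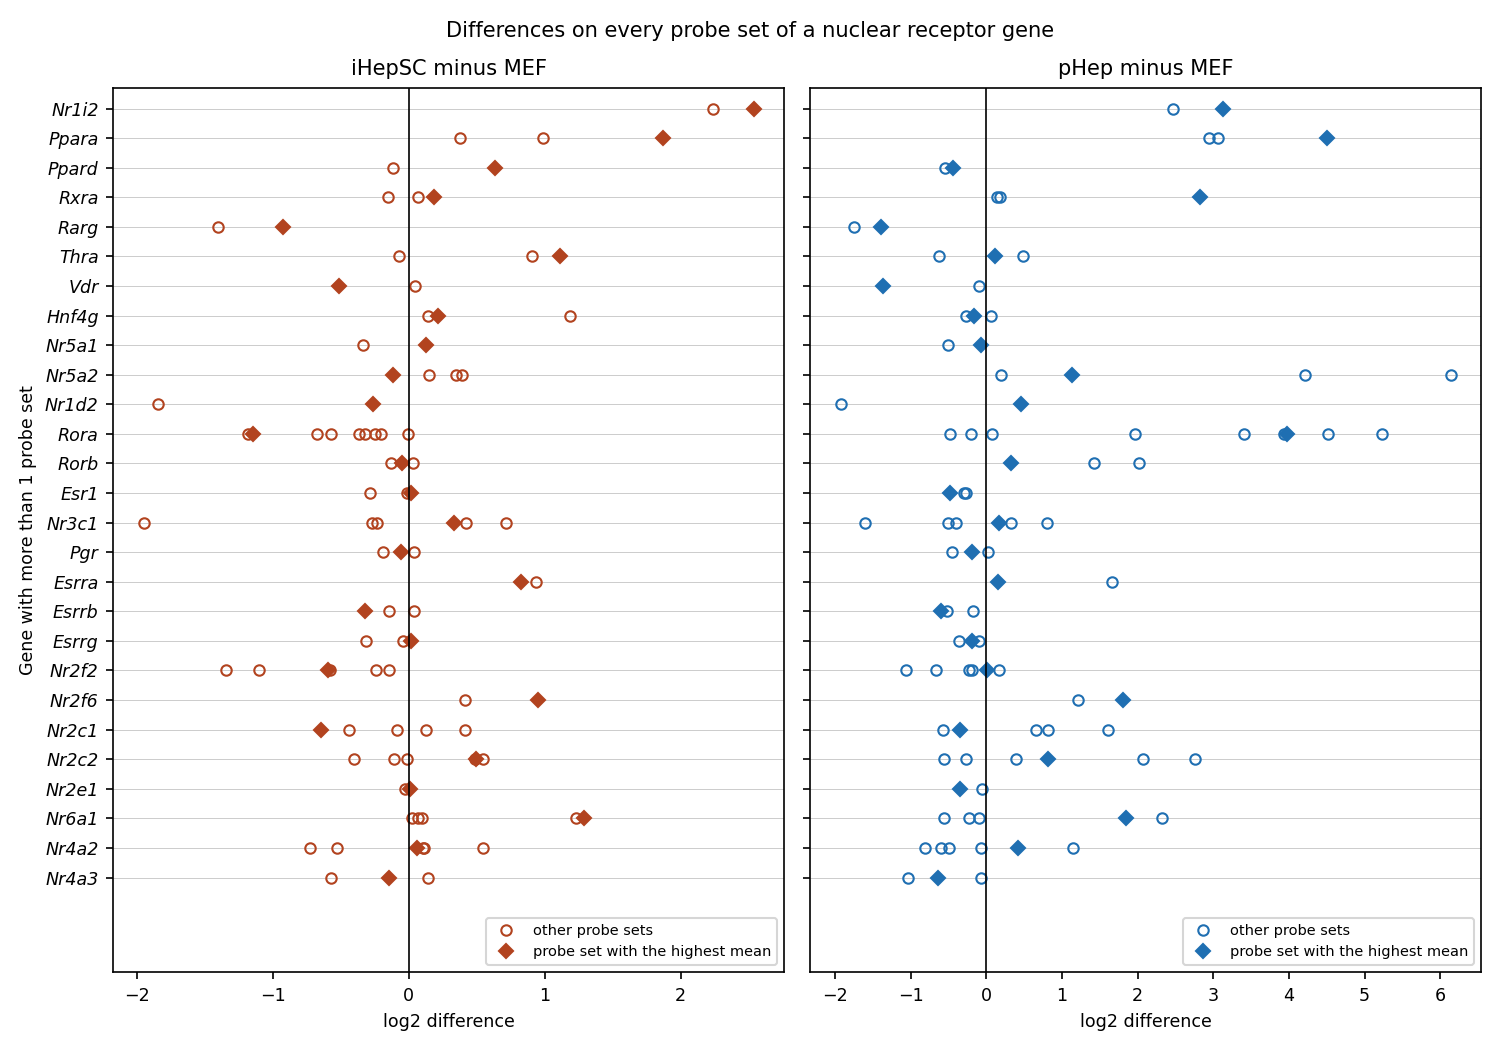
Log2 difference from MEF (x axis) on each probe set of the 27 nuclear receptor genes (y axis) that have more than 1, in iHepSC (left) and on pHep (right); the diamond is the probe set with the highest mean and circles are the others. The probe sets of Rora and Nr5a2 spread widely on pHep, and 1 probe set each of Nr3c1 and Nr1d2 lies far below the others.

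The passages of iHepSC were close. Each was measured once, so that no test was made. P20 was at least 0.5 above P3 in 2 members, Rora (0.84) and Nr1i2 (0.51), which is 4.65% of them beside 1.71% of all genes, and at least 0.5 below in 0, beside 2.69% of all genes. The median absolute difference between passages was 0.13 over the members and 0.12 over all genes.

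To show the DNA upstream of the members that moved the same way in iHepSC and on pHep, the 250 bases before the annotated start are given for 4 that rose and 2 that fell, in the direction of transcription, with CG pairs in capitals. The sequences come from RefSeq, build GRCm38.p6. The members that rose are Nr1h4 (chr10:89506659-89506908, minus strand), Nr1i2 (chr16:38294825-38295074, minus strand), Ppara (chr15:85735526-85735775, plus strand) and Nr3c2 (chr8:76902080-76902329, plus strand), and those that fell are Nr4a1 (chr15:101266596-101266845, plus strand) and Nr1d1 (chr11:98775378-98775627, minus strand).
Nr1h4: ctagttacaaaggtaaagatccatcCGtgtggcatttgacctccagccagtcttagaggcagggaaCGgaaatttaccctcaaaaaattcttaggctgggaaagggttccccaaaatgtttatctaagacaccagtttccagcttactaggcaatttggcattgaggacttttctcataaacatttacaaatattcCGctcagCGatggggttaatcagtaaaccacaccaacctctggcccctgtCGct
Nr1i2: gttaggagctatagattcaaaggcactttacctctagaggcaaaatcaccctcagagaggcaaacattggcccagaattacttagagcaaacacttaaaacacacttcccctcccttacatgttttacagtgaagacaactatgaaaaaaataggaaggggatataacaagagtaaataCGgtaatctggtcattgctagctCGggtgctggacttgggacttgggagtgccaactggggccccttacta
Ppara: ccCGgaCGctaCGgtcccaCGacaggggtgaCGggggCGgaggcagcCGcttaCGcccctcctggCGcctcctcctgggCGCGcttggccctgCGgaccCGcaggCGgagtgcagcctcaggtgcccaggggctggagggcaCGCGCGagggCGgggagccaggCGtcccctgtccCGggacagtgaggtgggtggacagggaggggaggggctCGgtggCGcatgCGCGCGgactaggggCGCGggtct
Nr3c2: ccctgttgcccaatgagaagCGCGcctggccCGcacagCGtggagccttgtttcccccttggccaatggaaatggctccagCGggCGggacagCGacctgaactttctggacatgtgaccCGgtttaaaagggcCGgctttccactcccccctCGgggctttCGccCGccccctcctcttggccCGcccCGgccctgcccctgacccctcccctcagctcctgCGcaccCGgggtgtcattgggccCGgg
Nr4a1: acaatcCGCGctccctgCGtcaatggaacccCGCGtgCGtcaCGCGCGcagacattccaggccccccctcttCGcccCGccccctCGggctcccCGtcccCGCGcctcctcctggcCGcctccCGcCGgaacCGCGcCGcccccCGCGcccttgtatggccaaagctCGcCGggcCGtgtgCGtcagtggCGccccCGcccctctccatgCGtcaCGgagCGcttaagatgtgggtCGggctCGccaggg
Nr1d1: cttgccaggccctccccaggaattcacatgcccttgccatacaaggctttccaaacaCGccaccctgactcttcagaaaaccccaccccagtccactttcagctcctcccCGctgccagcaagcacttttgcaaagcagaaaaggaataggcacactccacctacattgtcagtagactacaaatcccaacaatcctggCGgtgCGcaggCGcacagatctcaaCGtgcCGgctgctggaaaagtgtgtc

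The sequences fell into no single kind. Nr1h4 and Nr1i2 held 5 and 2 CG pairs in 250 bases with 44.4% and 44.0% G and C, while Ppara and Nr3c2, which rose too, held 27 and 17, with 76.4% and 68.4%. Nr4a1 held 34 and Nr1d1 held 7. An upstream sequence was used for 39 of the 43 members, with 59 start sites, and none for Nr3c1, Nr5a1, Hnf4g and Thra. Start sites on 1 chromosome were left out for the members but kept among those of all genes. The median was 11 CG pairs in the member sequences (quartiles 4.5 to 19), against 6 (quartiles 2 to 16) over 32851 start sites of all genes. The half-site to which many of the receptors bind, AGGTCA on either strand, was in 11 of 59 member sequences, of 10 genes, and in 14.0% of all. Among the 6 shown it was in that of Nr1h4, as TGACCT starting 214 bases before the start. The direct repeat of this half-site with 1 base between (DR1), on either strand, was in 0 of the 59 and 0.0335% of all, and CAAAGTCCA, a form bound by HNF4, in 0 of the 59 and 0.384% of all. A match of letters is a description only, and binding was not measured.

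Genes through which the receptors act were read from lists of coregulators and of known targets. Of all genes, 18.2% were higher and 13.4% lower in iHepSC than in MEF, and 14.8% and 15.5% on pHep. In iHepSC against pHep the shares were 9.26% and 7.89%. Several counts of these short lists lie near those shares. Of 14 coactivators 6 were higher and 2 lower in iHepSC than in MEF (median 0.58, and 0.01 over all genes), and 6 and 2 on pHep (median 0.97, and -0.13 over all genes). Kat2b, a histone acetyltransferase, had 11.72 and 11.68 in iHepSC, 12.28 on pHep and 9.52 to 10.22 in MEF. Ppargc1b, the coactivator PGC-1beta, rose by 1.84 in iHepSC, and Ncoa7 was higher in iHepSC by 1.71 and lower on pHep (-0.71). Of 7 corepressors 5 were higher in iHepSC and 0 lower (median 0.80), and 2 and 0 on pHep. The largest was Lcor, a ligand-dependent corepressor, with 11.73 and 11.59 in iHepSC, 11.90 on pHep and 7.81 to 8.17 in MEF, a difference of 3.67 in iHepSC and 3.91 on pHep. Of 6 steroid receptor chaperones, St13 was higher and Dnajb1 lower in iHepSC.

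Of 12 FXR targets, 7 were higher and 0 lower on pHep (median 1.36), and 3 were higher and 1 lower in iHepSC (median 0.09), while in iHepSC against pHep 1 was higher and 7 were lower. The list holds genes that FXR raises and genes that it lowers, so its counts do not measure FXR activity. Cyp7a1 and Slc10a1, which FXR lowers, were among those higher on pHep, by 0.94 and 4.09. Abcb11, the bile salt export pump, had 5.15 and 5.05 in iHepSC, 7.86 on pHep and 4.94 to 5.37 in MEF. Slc51a, a subunit of the basolateral bile acid exporter, had 7.50 and 7.42 in iHepSC, 5.60 on pHep and 5.58 to 5.90 in MEF. It was the target higher in iHepSC than on pHep, by 1.86, and Apoc2, a cofactor of lipoprotein lipase, rose in iHepSC by 5.80.

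Of 12 PXR and CAR targets 6 were higher in iHepSC (median 0.94) and 11 on pHep (median 2.27), and 0 were lower in either. Cyp3a13 had 9.97 and 10.26 in iHepSC, 10.93 on pHep and 4.44 to 4.83 in MEF. Cyp3a11, the drug-metabolising enzyme often used to read PXR activity in mouse liver, had 4.39 and 4.42 in iHepSC, 10.61 on pHep and 4.13 to 4.48 in MEF. The 2 enzymes were thus high together on pHep only. The transporters Abcc3 and Abcb1a rose in iHepSC by 5.99 and 3.18, and Abcc2 was at 4.92 and 4.95 in iHepSC and 10.68 on pHep.

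Of 15 PPARalpha targets 8 were higher and 2 lower in iHepSC (median 0.76), and 11 and 0 on pHep (median 2.37). Fabp1, the liver fatty acid binding protein, had 8.16 and 8.58 in iHepSC, 10.57 on pHep and 4.49 to 4.77 in MEF. Ehhadh, a peroxisomal enzyme of fatty acid oxidation, rose by 3.58 in iHepSC and 4.61 on pHep. Pdk4 and Acot1 were the ones lower in iHepSC, with differences of -3.49 and -1.79, and Vnn1, a pantetheinase, was higher in iHepSC than on pHep by 5.10. Of 12 LXR targets 4 were higher and 3 lower in iHepSC (median 0.12), and 5 and 2 on pHep (median 1.08). Apoe, the lipoprotein that macrophages also make, had 5.99 and 5.73 in iHepSC, 14.73 on pHep and 8.69 to 9.21 in MEF, and Abca1, a cholesterol exporter, rose on pHep by 3.47 while its difference in iHepSC was 0.04. The part of macrophage RNA in the pHep values of these targets was not tested.

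Glucocorticoid receptor targets had the largest median of the target lists in both comparisons with MEF. Of 14, 8 were higher and 0 lower in iHepSC (median 2.16), and 12 and 0 on pHep (median 3.27). Fkbp5, a chaperone that dampens the receptor, had 13.46 and 13.25 in iHepSC, 12.28 on pHep and 8.37, 9.32, 9.15 and 9.31 in MEF. Tsc22d3 (GILZ), an anti-inflammatory protein, rose by 3.57 in iHepSC and 3.30 on pHep, and Zbtb16 by 3.08 and 5.24. Tat, Pck1 and Igfbp1, targets of the hepatocyte's own program, did not pass in iHepSC (-0.04, -0.09 and 0.26) and were higher on pHep by 4.96, 3.53 and 9.35. By the labels, iHepSC but not MEF were grown with dexamethasone, and the sources differ for pHep. The part of dexamethasone in these values was not tested.

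**Figure D5:**
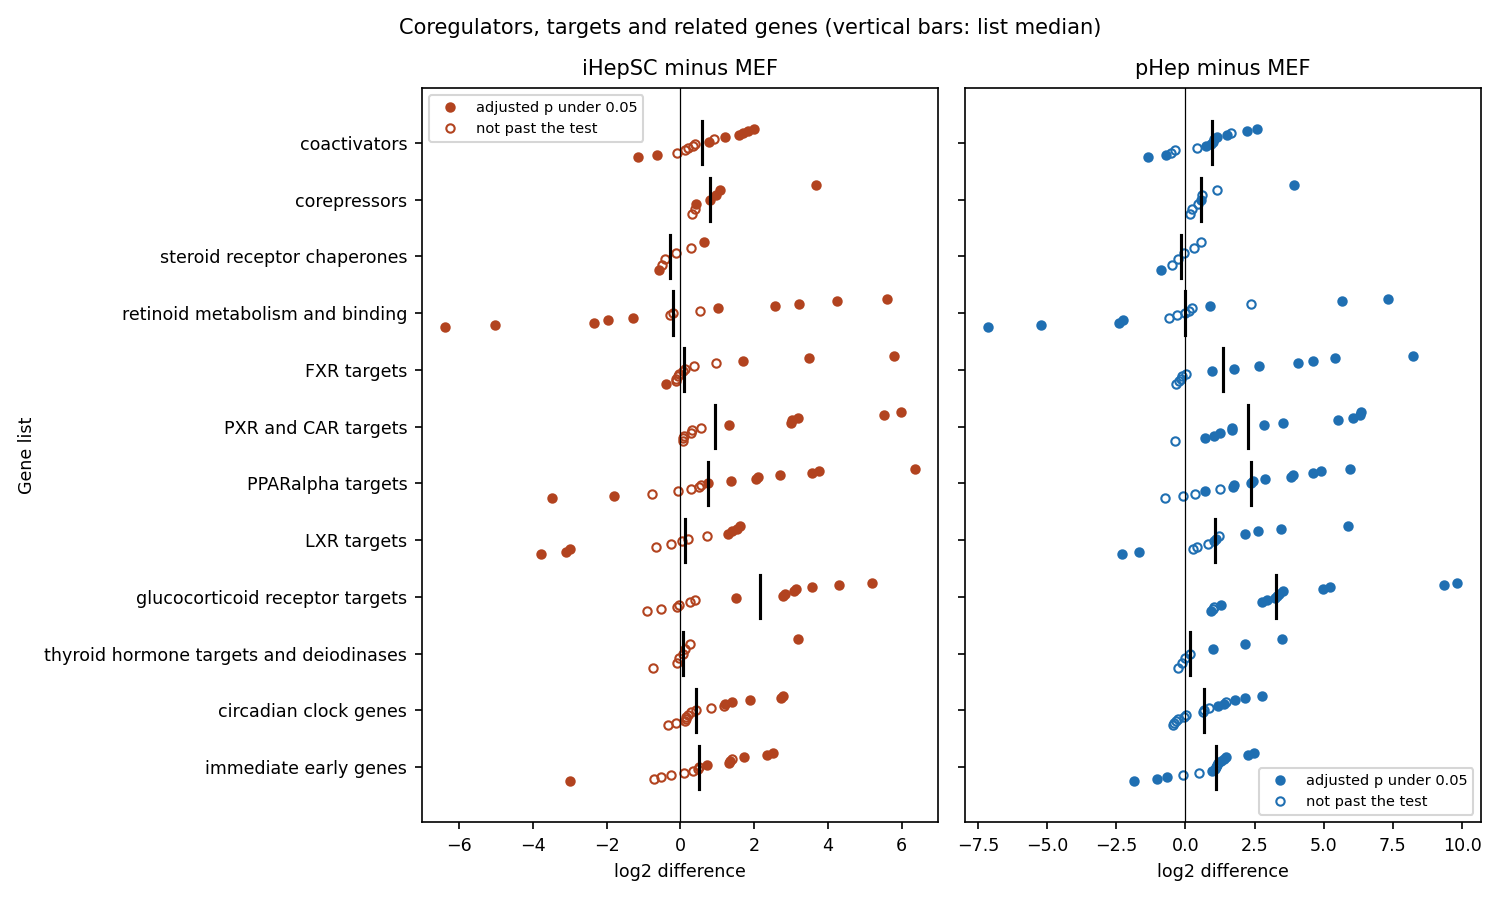
Log2 difference from MEF (x axis) of each measured gene (dots) in 12 lists of coregulators, targets and related genes (y axis), in iHepSC (left) and on pHep (right); filled dots passed the test and the vertical bar is the list's median. The glucocorticoid receptor targets have the largest medians of the lists shown, 2.16 and 3.27, and the FXR targets centre near 0 in iHepSC and at 1.36 on pHep.

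Genes of retinoid metabolism and binding went both ways, 5 of 13 higher and 5 lower in iHepSC (median -0.19), and 3 and 4 on pHep (median -0.02). Aldh1a1, which makes retinoic acid, had 14.40 and 14.49 in iHepSC, 14.49 on pHep and 7.93, 9.25, 9.14 and 9.01 in MEF. The cytosolic binding proteins Crabp1 and Crabp2 fell in iHepSC by 6.38 and 5.04 on the log2 scale and on pHep by 7.13 and 5.23, and Aldh1a2 fell by 2.34 and 2.41. Rdh10 and Dhrs3, enzymes that interconvert retinol and retinal, rose in iHepSC by 3.21 and 4.24. On pHep their differences from MEF were -0.59 and 2.36 and did not pass. Rbp4, the plasma carrier of retinol, stood at 9.87 and 9.74 in iHepSC, 14.58 on pHep and 6.80 to 7.76 in MEF. Cyp26a1, the retinoic acid-degrading enzyme that retinoic acid induces, passed no test.

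Of 7 thyroid hormone targets and deiodinases 1 was higher in iHepSC (median 0.06) and 3 on pHep (median 0.17), with 0 lower. The one that passed in iHepSC was Klf9, at 13.40 and 13.00, 13.51 on pHep and 11.95, 9.34, 9.41 and 9.36 in MEF, a gene that glucocorticoids also induce. Of 15 circadian clock genes 5 were higher and 0 lower in each comparison with MEF (medians 0.42 and 0.68). Per1, Per2 and Cry2, repressors of the clock, rose in iHepSC by 2.79, 2.73 and 1.39 and on pHep by 2.75, 1.80 and 1.38. Of 15 immediate early genes 6 were higher and 1 lower in iHepSC (median 0.49), and 6 and 3 on pHep (median 1.11). Egr2, lower in both, had 4.57 and 4.79 in iHepSC, 5.84 on pHep and 7.61 to 7.73 in MEF, while Junb and Atf3 rose in iHepSC by 2.34 and 2.53. Where a count of 0 lower is given for a list of targets, coregulators or clock genes, the count at an unadjusted p under 0.05 (limma) was 2 for glucocorticoid receptor targets in iHepSC, 1 for PXR and CAR targets and 1 for clock genes on pHep, and 0 for the others.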

How the data were processed

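Total RNA of 7 samples was hybridised to Affymetrix mouse expression arrays. The authors made log2 levels of 45101 probe sets by RMA (background correction, quantile normalization and summary per probe set) and deposited them in that form; the version of RMA is not given in the sources used here. These are 1-colour arrays, so precision is limited by how many there are.

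The annotation of the array tied probe sets to genes. Those with several symbols (932), with no symbol listed (9160) and 64 control probe sets were left out, which leaves 34945 probe sets of 18193 genes. For a gene with several probe sets, the one of highest mean level was taken, and dim probe sets were kept.

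The 3 group means were compared in 1 limma model over all genes (lmFit and eBayes of limma 3.58.1, run in R 4.3.3, with 4 residual degrees of freedom, prior with 2.11 degrees of freedom). The Benjamini-Hochberg adjustment ran over all 18193 genes, and an adjusted p under 0.05 was called. The fit assumes that pHep, with 1 array, has the spread of iHepSC and MEF. P20 and P3 were compared without a test. Upstream sequences were taken from RefSeq's table (GRCm38.p6). Figures were made with Python 3.11.15 and matplotlib 3.10.9.

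Named genes are all members with a probe set, with full statistics for those called with a difference of at least 1. The members, the 18 gene lists and the tests were chosen with earlier results of these data known. Alternatives were the average of a gene's probe sets, dropping those that end in _x_at or _s_at, a minimum log2 level of 6 on some array, repeated quantile normalization, Gapdh or median centring, robust fitting with a trend, leaving out each replicate, averaging MEF replicates 2 to 4, a replicate block, a 2-fold minimum and the methods' t-test. Taking the probe set with the highest value on any 1 array, and fitting every probe set as its own row, were added after the data were seen.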

Additional observations from a re-analysis of the deposited data

Results flagged for a closer look

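MEF 1 stood far from the other 3 MEF arrays in 7 of the 8 members where 1 MEF array lay apart by Dixon's test, which chance gives in about 1 in 20 groups. Those 8 are 18.6% of the members, beside 23.5% of all genes, and the 7 with MEF 1 apart are 16.3%, beside 20.4% of all genes. It was high for Rora (9.34, others 6.83 to 7.22), Rxra (9.19, others 7.97 to 8.05), Nr2f1 (9.62, others 8.59 to 8.72), Thra (8.45, others 7.96 to 8.02) and Esrra (9.40, others 9.02 to 9.08). It was low for Pparg (7.21, others 9.05 to 9.40) and Nr2c1 (8.38, others 8.72 to 8.78). The log2 of the summed linear levels of 12 macrophage markers on MEF 1 was 12.77, against 11.22 to 11.43 on MEF 2 to 4. In iHepSC it was 12.34 and 12.83. The same sum of 12 fibroblast markers was higher on MEF 1 (17.11, against 16.34 to 16.40), as were those of endothelial and stellate cell markers. That of 6 bile duct markers was lower (9.82, against 10.45 to 10.66), and that of hepatocyte markers lay within the range of MEF 2 to 4. The part of other cells in the receptor levels was not tested. MEF 1 was at least 1 above the mean of MEF 2 to 4 in 4 members, 9.30% beside 8.26% of all genes, and at least 1 below in 1 member, 2.33% beside 3.73%. The eighth was Nr4a3 on MEF 4 (8.01, others all 7.83).

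Rarb and Rxrb moved in opposite directions in iHepSC and on pHep against MEF. The difference between the 2 effects, which is that of iHepSC against pHep, was -1.72 for Rarb and 1.27 for Rxrb, and both passed the test (limma, adjusted p = 0.00101 and 0.00131).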

How the results depend on the processing

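Of the calls of members, 5 of 17 in iHepSC against MEF (Nr1h4, Nr1i2, Ppara, Nr3c2 and Nr4a1), 3 of 20 on pHep against MEF (Nr1h4, Ppara and Nr2f1) and 2 of 12 in iHepSC against pHep (Nr1h4 and Ppara) passed in each of 16 alternatives fitted gene by gene, among which the 2-fold minimum and the methods' t-test are not counted. Members higher and lower in iHepSC against MEF, 9 and 8, were 5 and 4 with MEF 2 to 4 averaged and 4 and 1 with a replicate block, and 3 were lower on Gapdh and at 2-fold. The block leaves fewer residual degrees of freedom than the main model and puts pHep together with iHepSC P3 and MEF 1. How many calls were lost for that reason was not tested. On pHep against MEF, 12 and 8 became 7 and 4 when averaged and 2 and 1 with the block, and 5 were lower at 2-fold. In iHepSC against pHep, 4 and 8 became 1 and 5 when averaged and 0 and 2 with the block (limma; 4 higher at an unadjusted p under 0.05), and 5 were lower on Gapdh. Leaving out 1 replicate gave 6 to 14 higher and 4 to 10 lower in iHepSC against MEF, 8 to 14 and 6 to 14 on pHep against MEF, and 1 to 10 and 5 to 11 in iHepSC against pHep, with the highest counts without MEF replicate 1. The 5756, 5510 and 3120 genes called in the 3 comparisons became 2701, 2167 and 1473 when averaged, 1527, 780 and 448 with the block, and 3132 to 10152, 3880 to 10660 and 1787 to 7772 without 1 replicate, and on Gapdh 2905 were called on pHep against MEF. The deviations from the group mean of iHepSC and MEF arrays with the same replicate number correlated at -0.22 and -0.21. The deviations of the 2 iHepSC arrays mirror each other, so these values cannot settle whether replicate numbers pair the arrays. The methods' t-test gave 8 higher and 6 lower members in iHepSC after adjustment, and 10 and 9 before. Where the test was passed before or after the change, those turned in direction were Nr1d2 on pHep (-0.73, mean of probe sets), Nr2c1 on pHep (0.43, mean of probe sets, and 0.66, highest on 1 array) and in iHepSC (0.13, highest on 1 array), Nr3c1 in iHepSC (-0.17, mean of probe sets) and Rara in iHepSC (0.17, Gapdh). Among differences that passed in neither fit, 19 of 76 turned sign on Gapdh and 11 of 70 with the mean of probe sets. The cause was not tested.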
